A study of Homo sapiens with 12 samples.

Results

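The genes described are MCL1 and 9 relatives in the BCL2 family of apoptosis regulators: BCL2, BCL2L1, BCL2L2, BAX, BAK1, BCL2L11, BID, BAD and BCL2L12. They were picked by gene symbol and make up 10 of the 34318 genes to which transcripts of the deposited table could be matched, and MCL1 was included because its response differed between the experiments. The libraries were made from polyadenylated RNA of HEK293T, an established human embryonic kidney line. They fell into 4 groups of 3. siControl cells were transfected with a control siRNA and siPOLR3A cells with an siRNA against POLR3A, the largest subunit of RNA polymerase III (Pol III), and both were collected 2 days later. DMSO cells received the 0.1% vehicle and ML60218 cells received 25 µM of this small-molecule Pol III inhibitor, both for 4 hours. The labels give the same cell line for all 12 libraries, with no engineered allele, although the titles of the DMSO and ML60218 libraries shorten its name, and the number and sequence of the POLR3A siRNAs are not given in the sources used here.

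Proteins of the BCL2 family decide whether the outer mitochondrial membrane is opened during apoptosis. Pro-survival members (MCL1, BCL2, BCL2L1 and BCL2L2) hold the pore-forming members BAX and BAK1 in check. BH3-only members (BCL2L11, BID and BAD) bind the pro-survival proteins or activate the pore formers directly. MCL1 differs from its relatives in having both a short-lived protein and a short-lived mRNA, so that its level follows recent transcription and translation. HEK293 cells carry adenovirus genes, 1 of which encodes a protein that acts like a pro-survival BCL2 protein, and HEK293T cells also carry a viral antigen that binds p53. Neither was analysed here, and both limit the line as a model of apoptosis control.

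Splicing changes what MCL1 and BCL2L1 encode, so the exon junctions that tell their long and short forms apart are shown first. In each 30-base stretch of the mature transcript, lower case is the end of the upstream exon and capitals are the start of the next exon joined to it. MCL1 lies on the minus strand of chromosome 1 (GRCh38, chr1:150574551-150579738). Its long form, MCL1-202, joins exons 1 and 2 and has 3 exons. MCL1-201 skips the 248-base exon 2 and encodes a short protein known to promote apoptosis. BCL2L1 lies on the minus strand of chromosome 20 (GRCh38, chr20:31664452-31723989). BCL2L1-201 encodes the pro-survival BCL-XL protein, and BCL2L1-202, which uses an earlier splice site and lacks the last 189 bases of exon 2, encodes the pro-apoptotic BCL-XS. The sequences are from GENCODE release 29.
MCL1-202: agacggccttccaagGCATGCTTCGGAAAC
MCL1-201: agacggccttccaagGATGGGTTTGTGGAG
BCL2L1-201: gagaacggcggctggGATACTTTTGTGGAA
BCL2L1-202: cagagctttgaacagGATACTTTTGTGGAA
The MCL1 forms share the upstream exon end, whereas the BCL2L1 forms share the downstream exon start.

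The 12 libraries held between 37008325 and 49479476 estimated reads. POLR3A, the siRNA's target, lay between 86.8 and 93.5 CPM in siControl and between 14.6 and 19.2 CPM in siPOLR3A (log2 fold change −2.36, SE 0.108, adjusted p 1.938e-05 in edgeR's quasi-likelihood test). CPM are counts scaled to library size, with TMM factors computed within each comparison. POLR3A was also lower with ML60218, at 85.1 to 89.0 CPM against 108 to 118 CPM in DMSO. Its log2 fold change there was −0.38 (SE 0.041, edgeR adjusted p 0.0002291), a call lost in 2 of 17 alternatives. Of 6 epithelial marker genes, 4 (EPCAM, CDH1, KRT8 and KRT18) reached 1 TPM (the deposited abundance, corrected for transcript length), as did 4 of 5 embryonic kidney markers and 1 of 7 mature kidney markers. Of 9 immune, endothelial and fibroblast markers 3 did (CD68, COL1A1 and DCN), and PTPRC, which defines leukocytes, was listed at 0 in every library. The summed epithelial markers moved with the treatments, from 34.2 to 36.3 TPM in siControl against 38.3 to 41.1 in siPOLR3A, and from 39.2 to 40.8 in DMSO against 42.8 to 45.3 in ML60218. The summed embryonic kidney markers were at 54.5 to 56.5 TPM in siControl against 50.5 to 53.2 in siPOLR3A, and the immune, endothelial and fibroblast markers at 22.6 to 24.4 against 25.2 to 30.2. The summed mature kidney markers were at 3.24 to 3.85 TPM in DMSO against 4.09 to 4.55 in ML60218, and the other sums overlapped. The part of these markers in the results below was not tested. The labels do not say that replicates came from separate cultures, so p-values measure the spread between these samples only, which may be technical. In such bulk RNA, fewer cells expressing a gene and less RNA per cell cannot be told apart.

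MCL1 mRNA was 2.22 times as high in siPOLR3A as in siControl cells, and lower in ML60218 than in DMSO cells. The siControl libraries held 141, 145 and 150.3 CPM and the siPOLR3A libraries 324, 327 and 317 CPM. The DMSO libraries held 295, 305 and 299.8 CPM and the ML60218 libraries 241, 243 and 239 CPM. In each experiment the groups did not overlap. The log2 fold change was 1.15 (SE 0.027) for siPOLR3A against siControl and −0.32 (SE 0.029) for ML60218 against DMSO, a difference between the effects of 1.47 (SE 0.039). MCL1 was chosen for this difference, so these values are a description and carry no test. The size of its change exceeded that of 97.1% of all genes tested after the siRNA, of 76% with ML60218 and of 96.9% for the difference.

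Per transcript length, the MCL1 values set the siControl libraries apart from the other 9. MCL1 stood at 49.7, 46.9 and 50.8 TPM in siControl and at 111.3, 112 and 109 TPM in siPOLR3A. It stood at 104, 106 and 101 TPM in DMSO and at 86.1, 91.8 and 94.1 TPM in ML60218. The siPOLR3A libraries thus lay just above the DMSO libraries, while siControl lay below every other group. The control groups belong to separate experiments and differ at least in transfection and vehicle, which cannot be told apart. On this scale the log2 fold change with ML60218 was −0.19, against −0.32 from the counts.

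**Figure D1:**
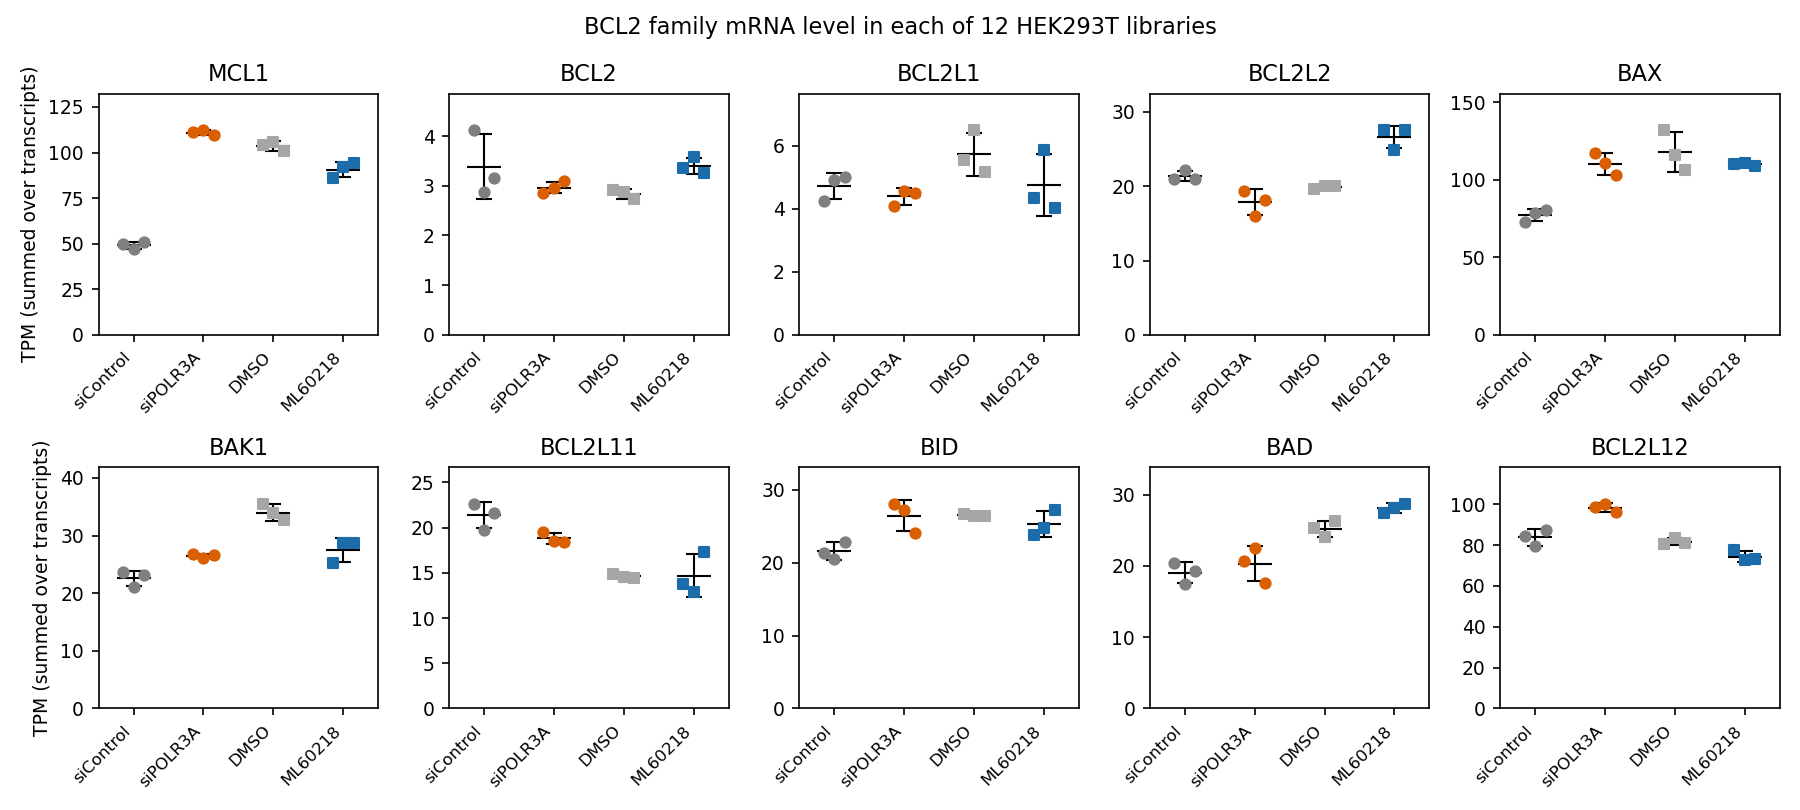
Level of each of the 10 genes in TPM (vertical axes, each starting at 0) in every library of the 4 groups. Points are libraries, and the bar and whiskers are the mean and SD of 3 libraries. MCL1 lies between 46.9 and 50.8 TPM in siControl and at 86.1 TPM or above in all other libraries.

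The long form accounted for most of the MCL1 signal. MCL1-202 held between 90.7% and 96.9% of the TPM of matched MCL1 transcripts in every library. It moved as the gene did, from 44.9 ± 1.31 (SD, n = 3) in siControl to 104 ± 0.700 TPM in siPOLR3A and from 97.8 ± 3.23 in DMSO to 86.5 ± 4.91 TPM in ML60218. The short form MCL1-201 was at 0.354, 0.0911 and 0.437 TPM in siControl, 1.03, 1.08 and 0.868 TPM in siPOLR3A, 1.36, 1.11 and 1.67 TPM in DMSO, and 0.709, 0.423 and 0.355 TPM in ML60218. Its libraries overlapped in neither experiment. Its share of the gene averaged 0.589% ± 0.350 in siControl, 0.896% ± 0.0900 in siPOLR3A, 1.34% ± 0.308 in DMSO and 0.554% ± 0.237 in ML60218 (SD, n = 3 each), and these shares were not tested. At this level it made up at most 1.66% of MCL1 in any library, and the files give no measure of how surely reads were divided between overlapping transcripts. MCL1-204 and MCL1-203 held the rest, at 0.650 to 3.69 and 1.53 to 3.32 TPM. MCL1-203 is 1099 bases long in GENCODE release 29 and 4550 bases long as deposited. A further transcript, which lies among the MCL1 transcripts in the table and is not in GENCODE release 29, was at 3.59 to 5.66 TPM. The MCL1 levels and shares given here leave it out. With such unmatched transcripts included, the MCL1 log2 fold change after the siRNA was 1.08 in place of 1.15.

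**Figure D2:**
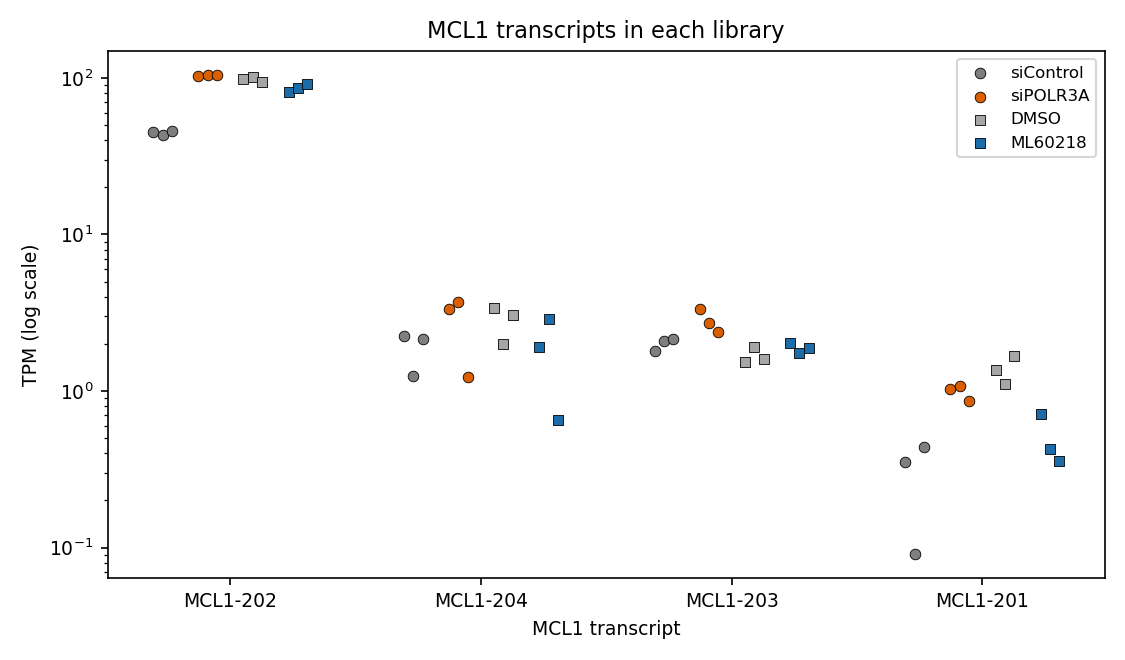
TPM (log scale) of the 4 annotated MCL1 transcripts in each of the 12 libraries. MCL1-202 lies at 43.5 TPM or above in every library, and the other transcripts at 3.69 TPM or below.

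BCL2L2, which encodes the pro-survival protein BCL-W (GRCh38, chr14:23298790-23311759, plus strand), moved in the opposite direction to MCL1 in both experiments. It was measured at 40.6, 45.7 and 42.9 CPM in siControl and at 33.8, 31.7 and 30.3 CPM in siPOLR3A. It stood at 36.0, 39.99 and 40.04 CPM in DMSO and at 50.8, 43.2 and 46.4 CPM in ML60218. All siPOLR3A libraries were below all siControl libraries, and all ML60218 libraries above all DMSO libraries. BCL2L2 fell by 0.43 on the log2 scale after the siRNA (SE 0.051, edgeR adjusted p 7.904e-06) and rose by 0.27 with ML60218 (SE 0.066, edgeR adjusted p 0.009299). Both calls held under all 17 alternatives tried for each comparison. The readthrough gene BCL2L2-PABPN1 shares sequence with BCL2L2. It was at 1.28 to 1.91 TPM in the siControl, DMSO and ML60218 libraries and at 0.255 to 0.514 TPM in siPOLR3A, and how reads were divided between the 2 genes makes the BCL2L2 values uncertain.

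BCL2, the founding pro-survival member (GRCh38, chr18:63123346-63320128, minus strand), gave 18.1, 16.1 and 17.0 CPM in siControl and 14.9, 15.5 and 15.6 CPM in siPOLR3A. The DMSO libraries held 15.2, 15.02 and 14.9 CPM and the ML60218 libraries 17.4, 17.6 and 15.3 CPM. BCL2 fell after the siRNA by 0.16 on the log2 scale (SE 0.059, edgeR adjusted p 0.03901), and with ML60218 its log2 fold change of 0.15 (SE 0.067) did not pass (edgeR adjusted p 0.09797). The siRNA call was lost in 13 of 17 alternatives. Among them were the fits without siControl replicate 1 (edgeR adjusted p 0.151) or 3 (0.0712) and without siPOLR3A replicate 1 (0.119), 2 (0.067) or 3 (0.0607), while the fit without ML60218 replicate 3 gave the ML60218 effect a call (0.0224).

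BCL2L1 was the second lowest member in TPM in every group. Its libraries read 7.33, 8.87 and 9.07 CPM in siControl and 7.01, 7.92 and 7.78 CPM in siPOLR3A. DMSO libraries read 9.35, 11.0 and 9.19 CPM and ML60218 libraries 7.21, 9.17 and 6.02 CPM. Groups overlapped in the siRNA experiment and stood apart by a narrow margin in the other. Neither log2 fold change passed the test, at −0.16 (SE 0.094, edgeR adjusted p 0.1754) after the siRNA and −0.40 (SE 0.15, adjusted p 0.0634) with ML60218. Without siControl replicate 1 the first was −0.24 and called (edgeR adjusted p 0.0399), and without ML60218 replicate 2 the second was −0.58 and called (0.0103). The ML60218 effect was also called in DESeq2 (−0.40, adjusted p 0.0322) and in edgeR with a replicate block (−0.42, adjusted p 0.0123). When unmatched transcripts lying among those of BCL2L1 were included, the ML60218 value was −0.01. The most abundant of these averaged 1.11 ± 0.466 TPM in siControl, 1.94 ± 0.357 in siPOLR3A, 1.34 ± 0.146 in DMSO and 2.38 ± 0.724 in ML60218 (SD, n = 3 each). The BCL2L1 levels, ranks and shares given here leave such transcripts out.

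BCL2L1 reads were spread over many transcripts, and several of the annotated ones are much shorter in GENCODE release 29 than in the deposited table. BCL2L1-201 held 0.306 to 1.41 TPM in siControl, 0.325 to 0.829 in siPOLR3A, 0.689 to 1.25 in DMSO and 0 to 1.47 in ML60218. BCL2L1-202, the short form shown above, did not exceed 0.326 TPM in any library. BCL2L1-207 is 781 bases long in GENCODE release 29 and 2426 bases long as deposited. Of the TPM of matched BCL2L1 transcripts it took 54.5% ± 9.94 in siControl and 25.7% ± 7.16 in siPOLR3A, and 28.9% ± 11.1 in DMSO and 47.9% ± 21.6 in ML60218 (SD, n = 3 each). BCL2L1-205 was listed at 0 in 2 of 3 siControl libraries and in 2 of 3 ML60218 libraries. Over all libraries BCL2L1-209 lay at 0.112 to 1.63 TPM and BCL2L1-204 at 0.0982 to 1.87 TPM. In edgeR's test of transcript usage, 0 of 5 BCL2L1 transcripts passed in either comparison, against 0.859% of all transcripts tested after the siRNA and 0.378% with ML60218. With an unadjusted p under 0.05 there were also 0, the lowest being 0.1558 and 0.4781 (edgeR). That test performed poorly on simulated data, so nothing is read from it.

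MCL1 made up a larger part of the pro-survival mRNA in siPOLR3A than in siControl cells, and a smaller part in ML60218 than in DMSO cells. The summed pro-survival TPM was 78.6 ± 1.59 in siControl, 136 ± 1.36 in siPOLR3A, 132 ± 3.32 in DMSO and 125.5 ± 3.86 in ML60218 (SD, n = 3 each). Of that sum MCL1 made up 62.9%, 61.1% and 63.5% in siControl and 80.9%, 82.7% and 81.0% in siPOLR3A. It made up 78.7%, 78.3% and 78.3% in DMSO and 70.9%, 72.8% and 73.0% in ML60218. Without MCL1, the other 3 summed to 29.4 ± 0.411, 25.2 ± 1.49, 28.5 ± 0.811 and 34.8 ± 0.419 TPM in the same order of groups. The groups did not overlap in the MCL1 share in either experiment, a description that rests on the choice of MCL1.

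Both pore-forming genes rose after the siRNA and fell with ML60218. BAX (GRCh38, chr19:48954815-48961798, plus strand), which moves from the cytosol to mitochondria on activation, was measured at 41.9, 46.2 and 45.4 CPM in siControl and at 65.8, 63.6 and 60.4 CPM in siPOLR3A. It stood at 69.9, 64.3 and 61.3 CPM in DMSO and at 56.4, 54.6 and 51.0 CPM in ML60218. The groups were apart in both experiments, with siControl again the lowest of the 4 groups, in TPM too. BAX rose by 0.51 (log2, SE 0.043, edgeR adjusted p 2.191e-07) after the siRNA and fell by 0.27 (SE 0.057, edgeR adjusted p 0.004555) with ML60218. On the TPM scale the fall was 0.10 and did not pass (limma adjusted p 0.329 to 0.479), and there the DMSO libraries ranged from 106 to 132 TPM and overlapped the ML60218 libraries at 108 to 111 TPM.

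BAK1, the pore former that resides in the mitochondrial outer membrane (GRCh38, chr6:33572547-33580293, minus strand), gave 34.7, 33.1 and 35.0 CPM in siControl and 39.6, 39.0 and 39.9 CPM in siPOLR3A. It gave 51.2, 48.8 and 49.3 CPM in DMSO and 35.2, 38.2 and 36.6 CPM in ML60218. No library of one group reached the other in either experiment. BAK1 rose by 0.21 (log2, SE 0.038, edgeR adjusted p 0.0003988) after the siRNA and fell by 0.44 (SE 0.046, edgeR adjusted p 0.0002078) with ML60218, the latter the largest of the ML60218 changes that passed among the members. Both BAK1 calls held under all 17 alternatives of each comparison. Summed, BAX and BAK1 stood at 99.8 ± 3.31 TPM in siControl, 137 ± 7.06 in siPOLR3A, 152 ± 14.3 in DMSO and 137 ± 1.98 in ML60218 (SD, n = 3 each). The ratio of MCL1 to BAX in TPM was 0.637 ± 0.0419 in siControl, 1.01 ± 0.0551 in siPOLR3A, 0.885 ± 0.0841 in DMSO and 0.826 ± 0.0434 in ML60218.

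Of the BH3-only genes, BCL2L11 was lower in both experiments. BCL2L11, which encodes BIM, an activator that binds all pro-survival members (GRCh38, chr2:111119378-111168447, plus strand), was measured at 64.7, 66.1 and 66.3 CPM in siControl and at 57.4, 56.6 and 57.8 CPM in siPOLR3A. It stood at 45.1, 43.6 and 43.9 CPM in DMSO and at 38.8, 35.4 and 40.3 CPM in ML60218. The groups were apart in both. BCL2L11 fell by 0.20 (log2, SE 0.030, edgeR adjusted p 6.007e-05) after the siRNA and by 0.21 (SE 0.053, edgeR adjusted p 0.01128) with ML60218. The siRNA call was lost in 1 of 17 alternatives, and the ML60218 call in 5, of which the 3 on TPM gave log2 changes close to −0.01 (limma adjusted p 0.96 to 0.971).

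BID, which is cleaved by caspase-8 to activate BAX and BAK1 (GRCh38, chr22:17734138-17774770, minus strand), ranged from 19.5 to 21.0 CPM in siControl and from 22.5 to 23.2 CPM in siPOLR3A. Its DMSO libraries ranged from 22.5 to 24.9 CPM and overlapped the ML60218 libraries at 21.5 to 23.5 CPM. BID rose by 0.16 (log2, SE 0.052, edgeR adjusted p 0.01875) after the siRNA, and its change of −0.09 (SE 0.059) with ML60218 did not pass (edgeR adjusted p 0.2394). The siRNA call was lost without siControl replicate 2 (edgeR adjusted p 0.076), without siPOLR3A replicate 1 (0.063) and in DESeq2 (0.0828). BAD, a sensitizer held inactive by phosphorylation (GRCh38, chr11:64269830-64284704, minus strand), was at 6.38 to 7.43 CPM over the siRNA experiment and 8.44 to 9.45 CPM over the other, with overlapping groups in both. Its log2 changes were 0.03 (SE 0.088, edgeR adjusted p 0.7845) and −0.01 (SE 0.076, edgeR adjusted p 0.9208). Together, the 3 BH3-only genes gave 62.0 ± 3.65, 65.6 ± 4.70, 66.4 ± 1.22 and 68.1 ± 4.58 TPM in siControl, siPOLR3A, DMSO and ML60218 (SD, n = 3 each).

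BCL2L12, an atypical member found in the cytosol and nucleus (GRCh38, chr19:49665142-49673916, plus strand), had the highest mean TPM of the members in siControl, where it overlapped BAX. It was measured at 40.0, 42.3 and 43.1 CPM in siControl and at 51.5, 49.8 and 49.8 CPM in siPOLR3A, and at 35.6, 37.2 and 37.4 CPM in DMSO and 35.2, 30.5 and 30.6 CPM in ML60218. The siRNA groups were well apart, and the ML60218 libraries lay just under the DMSO libraries. BCL2L12 rose by 0.27 (log2, SE 0.037, edgeR adjusted p 2.891e-05) after the siRNA and fell by 0.20 (SE 0.061, edgeR adjusted p 0.02875) with ML60218. The second call was lost in 9 of 17 alternatives, among them the fits without DMSO replicate 2 (edgeR adjusted p 0.0978) or 3 (0.093) and without ML60218 replicate 2 (0.105) or 3 (0.0765).

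Of the 9 members other than MCL1, 7 passed after the siRNA, against 56.6% of all 15404 genes tested. BAX, BAK1, BID and BCL2L12 were higher (27.4% of all genes were), and BCL2, BCL2L2 and BCL2L11 were lower (29.2% of all genes were). With ML60218, 5 passed, against 39% of all 15461 genes. BCL2L2 was higher (18.1% of all genes were), and BAX, BAK1, BCL2L11 and BCL2L12 were lower (20.9% of all genes were). The median log2 change of the 9 was 0.03 after the siRNA and −0.20 with ML60218, where all genes tested had 0.005 in both. The median size of the change was 0.20 and 0.21, near that of all genes tested, 0.23 and 0.17. With so large a share of all genes passing, the number of members that passed does not set the family apart.

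**Figure D3:**
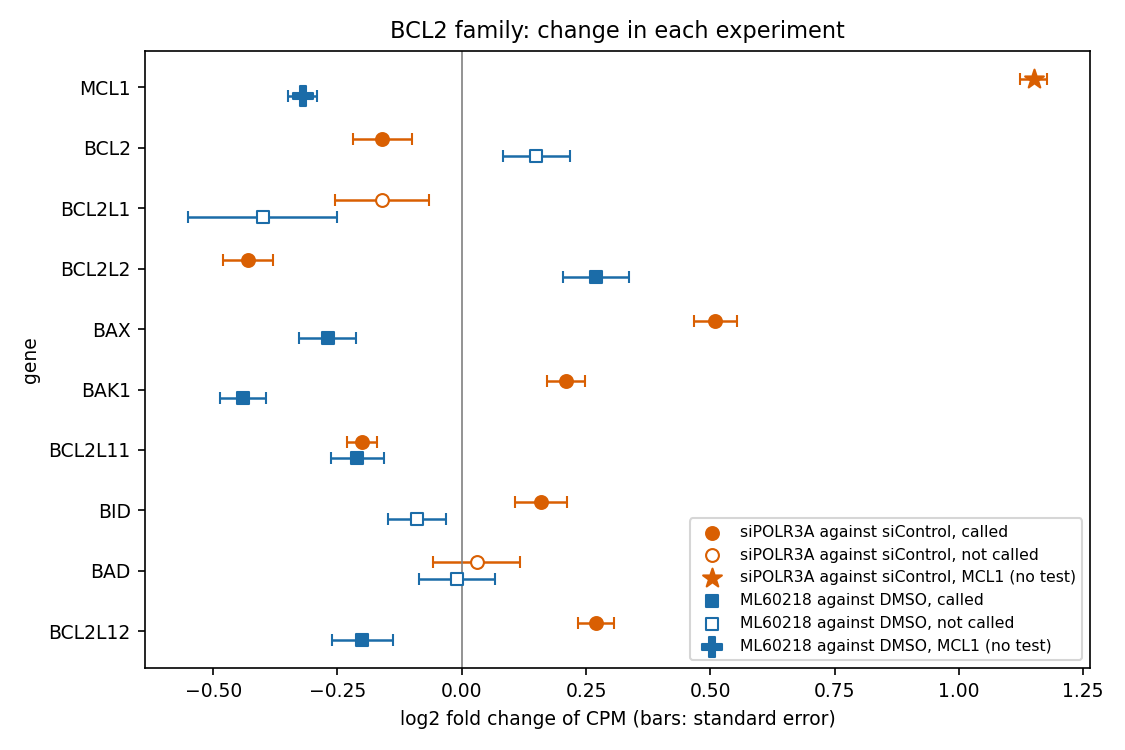
Log2 fold change of CPM with its standard error for the 10 genes (horizontal axis), for siPOLR3A against siControl (circles) and ML60218 against DMSO (squares). Filled symbols passed an adjusted p of 0.05 and open symbols did not. MCL1 carries no test. Its value is 1.15 after the siRNA, where BAX comes next at 0.51.

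A single model over the 12 libraries tested whether the siRNA and the inhibitor differed in effect, with the ML60218 log2 change subtracted from the siPOLR3A change. Of the 9 members, 6 passed, against 50.9% of all 15780 genes. Positive differences were those of BAX (0.79, SE 0.076, edgeR adjusted p 4.187e-07), BAK1 (0.65, SE 0.058, adjusted p 1.583e-07), BCL2L12 (0.47, SE 0.071, adjusted p 4.924e-05) and BID (0.26, SE 0.076, adjusted p 0.01034), where 24.5% of all genes had one. Negative differences were those of BCL2L2 (−0.70, SE 0.089, edgeR adjusted p 1.023e-05) and BCL2 (−0.30, SE 0.088, adjusted p 0.009358), where 26.4% of all genes had one. The BCL2 difference was lost in 4 of 23 alternatives (adjusted p up to 0.107), and the other 5 held in all 23. BCL2L11 fell in both experiments, with a difference of 0.02 (SE 0.058, edgeR adjusted p 0.828) that took either sign among the alternatives, from −0.17 to 0.05. BCL2L1 differed by 0.25 (SE 0.192, edgeR adjusted p 0.2997), a value that passed only without ML60218 replicate 2 (0.42, adjusted p 0.0413), and BAD by 0.05 (SE 0.112, adjusted p 0.7565). The siRNA acted for 2 days and the inhibitor for 4 hours, so agent and time cannot be told apart in these differences.

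The order of the members by TPM differed between groups. In siControl, BCL2L12 (83.8 ± 4.12) and BAX (77.2 ± 3.73) overlapped, and MCL1 came next at 49.1 ± 2.00 TPM. In siPOLR3A, MCL1 (111 ± 1.41) and BAX (110.3 ± 6.98) overlapped at the top, above BCL2L12 (98.5 ± 2.10). In DMSO and in ML60218 BAX came first, at 118 ± 12.9 and 109.8 ± 1.14 TPM, followed by MCL1 and then by BCL2L12 at 81.8 ± 1.73 and 74.4 ± 2.73 TPM, with no overlap between these neighbours. BAK1, BID, BCL2L11, BCL2L2 and BAD held the middle ranks in all groups, between 12.8 and 35.5 TPM, in an order that differed from group to group, and several of them overlapped. BCL2L1 (means of 4.39 to 5.74 TPM) and BCL2 (means of 2.84 to 3.40 TPM) were the lowest in every group and did not overlap each other (SD, n = 3 each).

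The 5 protein-coding genes whose log2 CPM over the 12 libraries was most like that of MCL1 were AAGAB (Pearson r 0.997), EIF3B (0.995), EFTUD2 (0.992), TRAM2 (0.991) and SLC19A1 (0.991), out of 10293 genes compared. SLC19A1, the reduced folate carrier, for example had mean CPM of 19.9 in siControl, 45.6 in siPOLR3A, 39.2 in DMSO and 32.1 in ML60218. Among the members the likeness to MCL1 was 0.95 for BAX, 0.79 for BID, 0.70 for BAK1, 0.40 for BAD, 0.13 for BCL2L12, 0.07 for BCL2L1, −0.48 for BCL2L11, −0.54 for BCL2L2 and −0.65 for BCL2. The libraries form 4 groups of 3, so these values mostly compare 4 group means, and they are given as a description.

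Matches to the 6-base sequence GAGGGA, and to GACGTA, were counted in 3′ UTRs on the transcript strand. Both sequences were chosen after values of these data were known. BCL2L2, the member with the largest fall after the siRNA, held 2 copies of GAGGGA, shown with 10 bases on either side and the copy in capitals (GRCh38 plus strand, chr14:23309102-23309107 and chr14:23309223-23309228).
BCL2L2 site 1: ggtagtgtgtGAGGGAgctgagtagg
BCL2L2 site 2: ggggaggtggGAGGGAtcacgcctat
BCL2 held 4 copies, BCL2L1 2, BCL2L11 2 and BAD 1, while MCL1, BAX, BAK1, BID and BCL2L12 held 0. None of the 10 genes held GACGTA. The 3 members called lower after the siRNA (BCL2, BCL2L2 and BCL2L11) held GAGGGA, and the 4 called higher held 0 copies, although the calls of BCL2 and BID were lost in 13 and 3 alternatives. BCL2L1 and BAD, which were not called, held it too. Because the sequences were chosen with values known, this split is a description and carries no test. Among all genes, GAGGGA was present in 40.2% of 4123 3′ UTRs of those called lower, 29.2% of 3743 called higher and 29.7% of 5353 not called. At least 1 copy of GAGGGA was present in 32.8% of all 13219 3′ UTRs scanned. Longer 3′ UTRs hold it more often: among those within 10% of the same length, the share was 75.7% for BCL2, 69.9% for BCL2L11, 54.0% for BCL2L2, 53.6% for MCL1, 39.7% for BCL2L1, 38.4% for BID, 36.2% for BAK1, 22.6% for BAX, 14.9% for BAD and 4.53% for BCL2L12. GACGTA was present in 3.71% of all. After the siRNA it was present in 2.04% of 3′ UTRs of genes called lower, 6.52% of those called higher and 3.045% of those not called. The shares by call come from these same data and were not matched for 3′ UTR length. These are matches of letters, and their part in the changes was not tested.

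Of 16 other genes of the BCL2 family or with a BH3 motif, BCL2L10 was expressed too little to test. No matched gene carried the symbol BCL2L14. The other 14 were tested. After the siRNA 2 were higher (27.4% of all genes were) and 8 lower (29.2% of all genes), with a median log2 change of −0.15 against 0.005 over all genes. PMAIP1, which encodes NOXA, a BH3-only protein that binds MCL1 and promotes its breakdown, rose in both experiments, from 115 ± 2.17 to 135.5 ± 3.38 CPM after the siRNA (log2 0.23, SE 0.028, edgeR adjusted p 7.306e-06) and from 127 ± 3.27 to 188 ± 17.8 CPM with ML60218 (log2 0.57, SE 0.065, edgeR adjusted p 0.0006161). BIK, another BH3-only gene, also rose after the siRNA (log2 0.73, SE 0.181, edgeR adjusted p 0.00346), at a level of only 0.898 to 1.86 CPM. The largest falls were those of BNIP1 (log2 −0.94, SE 0.064, edgeR adjusted p 2.022e-08), a SNARE protein of the endoplasmic reticulum, BCL2L13 (−0.52, SE 0.029, adjusted p 2.674e-09), a mitophagy receptor, and BMF (−0.48, SE 0.062, adjusted p 1.333e-05), a BH3-only gene. The calls of PMAIP1, BIK, BNIP1, BCL2L13 and BMF after the siRNA held under all 17 alternatives. HRK also fell after the siRNA (log2 −0.44, SE 0.064, edgeR adjusted p 4.043e-05), a call lost in 1 of the alternatives.

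With ML60218, 5 of the 14 were higher (18.1% of all genes were) and 1 lower (20.9% of all genes), with a median log2 change of 0.06 against 0.005 over all genes. HRK, a BH3-only gene, rose by 0.66 (SE 0.065, edgeR adjusted p 0.0001884) and BCL2L13 by 0.34 (SE 0.053, adjusted p 0.001232). BIK fell by 0.92 (SE 0.301, edgeR adjusted p 0.03676), a call lost in 7 of 17 alternatives, among them the fits without DMSO replicate 1 (0.0955) or 3 (0.122) and without ML60218 replicate 3 (0.0778). The number called after the siRNA ranged from 7 to 11 over the alternatives, and with ML60218 from 3 to 8, with 3 each without DMSO replicate 1, DMSO replicate 3 or ML60218 replicate 3. Between the effects, 1 of the 14 had a positive and 6 a negative difference, against 24.5% and 26.4% of all genes. The positive one was that of BIK (1.65, SE 0.361, edgeR adjusted p 0.001243), the largest in size. BNIP1, BCL2L13 and HRK had negative differences, of −1.17 (SE 0.110), −0.86 (SE 0.065) and −1.10 (SE 0.092), with edgeR adjusted p of 3.156e-07, 2.999e-08 and 8.723e-08.

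Of 10 genes for enzymes that control MCL1 protein stability, 9 could be tested (TRIM17 could not). Of these 4 were called after the siRNA, against 56.6% of all genes, and 5 with ML60218, against 39%. After the siRNA 2 were higher, CDC20 (log2 0.31, SE 0.030, edgeR adjusted p 8.428e-07) and BTRC (0.21, SE 0.026, adjusted p 9.747e-06), which encode substrate adaptors of ubiquitin ligases. The 2 that were lower were USP13, a deubiquitinase that stabilizes MCL1 (−0.43, SE 0.099, edgeR adjusted p 0.01663), and the ligase gene MARCHF5 (−0.10, SE 0.038, adjusted p 0.04596). The MARCHF5 call was lost in 13 alternatives and that of USP13 in 4, among them without siControl replicate 1 (0.0649), siControl replicate 2 (0.0601) or siPOLR3A replicate 3 (0.0571). With ML60218 HUWE1, the ubiquitin ligase also called MULE (log2 0.35, SE 0.071, edgeR adjusted p 0.007816), and the deubiquitinase gene USP9X (0.28, SE 0.051, adjusted p 0.00243) were higher. GSK3A, a kinase (−0.28, SE 0.043, edgeR adjusted p 0.001083), CDC20 (−0.17, SE 0.035, adjusted p 0.003936) and BTRC (−0.15, SE 0.036, adjusted p 0.007751) were lower. The CDC20 call with ML60218 was lost in 4 of 17 alternatives, with total counts (−0.10, edgeR adjusted p 0.0601) and in the 3 TPM fits (−0.05, limma adjusted p 0.515 to 0.582). The BTRC call was lost in 5, with total counts (0.0892), with the length offset (−0.01, edgeR adjusted p 0.907) and in the TPM fits, where BTRC was at 0.12. HUWE1 and GSK3A lost their calls in limma on TPM with no filter (adjusted p 0.0658 and 0.0548). The median log2 change of the 9 was 0.06 after the siRNA and −0.07 with ML60218, and without siControl replicate 2 or siPOLR3A replicate 3 only 2 were called after the siRNA. These are mRNA levels, and MCL1 protein was not analysed here.

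The 13 genes that act downstream of the mitochondrion, from cytochrome c to the caspases and their inhibitors, moved in both directions. After the siRNA 5 were higher and 4 lower, 9 of 13 against 56.6% of all genes, with a median log2 change of 0. XIAP, which inhibits caspases directly, rose by 0.46 (SE 0.027, edgeR adjusted p 4.349e-09), and BIRC5, which encodes survivin, rose by 0.33 (SE 0.024, edgeR adjusted p 4.455e-08). CASP9, the initiator caspase of the apoptosome, fell by 0.37 (SE 0.061, edgeR adjusted p 0.0001295), CASP6 by 0.36 (SE 0.062, adjusted p 0.0002166) and CYCS, cytochrome c, by 0.18 (SE 0.022, adjusted p 8.619e-06). With ML60218 4 were higher and 4 lower, 8 of 13 against 39% of all genes, with a median of 0.07. The largest rises were those of BIRC3 (0.36, SE 0.121, edgeR adjusted p 0.03932), BIRC2 (0.22, SE 0.070, adjusted p 0.03542) and XIAP (0.22, SE 0.050, adjusted p 0.007842), and the falls included those of BIRC5 (−0.37, SE 0.033, adjusted p 0.000118) and CYCS (−0.29, SE 0.038, adjusted p 0.0005162). The BIRC3 call was lost in 12 of 17 alternatives and the BIRC2 call in 7, for both of them without DMSO replicate 1 (0.0857 and 0.0955), DMSO replicate 2 (0.124 and 0.108), DMSO replicate 3 (0.0916 and 0.0858) or ML60218 replicate 2 (0.0859 and 0.104), for BIRC3 also without ML60218 replicate 1 (0.104), and for BIRC2 also without ML60218 replicate 3 (0.083). In limma on TPM with no filter, CASP9 after the siRNA (adjusted p 0.0733) and XIAP (0.0628) and CYCS (0.0572) with ML60218 did not pass. The number called with ML60218 was 5 without DMSO replicate 1 or 2 and 4 without DMSO replicate 3.

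**Figure D4:**
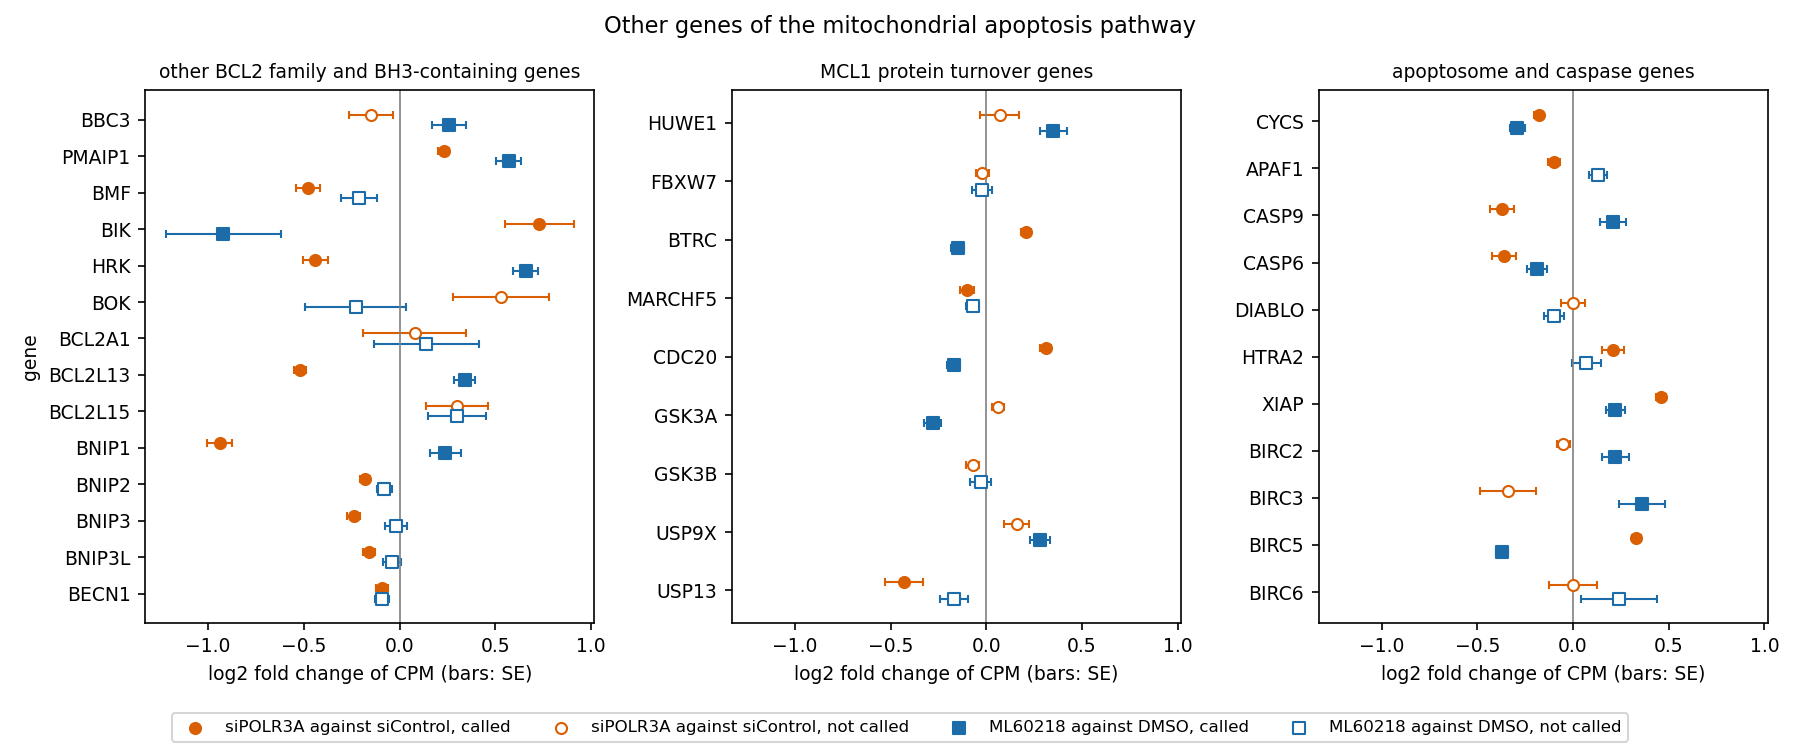
Log2 fold change of CPM with its standard error for the tested genes of the 3 lists, apart from 2 that are not reported here, for siPOLR3A against siControl (circles) and ML60218 against DMSO (squares). Filled symbols passed an adjusted p of 0.05. BNIP1 (−0.94) and BIK (0.73) are the extremes after the siRNA.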

How the data were processed

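Messenger RNA of 12 HEK293T libraries was sequenced with a strand-specific kit. Per the submitters' processing notes, bcl2fastq 2.20, Trim Galore, DESeq2 and build hg38 were used. The deposited table gives expected (estimated) counts and TPM for 194142 transcripts, in columns that, per the file headers, are those of salmon. Its version and index are not given in the sources used here. Transcripts were matched by stable identifier to GENCODE release 29 (81.6% matched), and unmatched ones held 8.37% to 8.97% of reads and were left out. The deposited estimated counts and the deposited TPM were added up over each gene's transcripts, the former then rounded. Groups and replicate numbers came from sample titles.

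The 6 libraries of a comparison were fitted with edgeR 4.0.16 (R 4.3.3): filterByExpr (minimum count 10, minimum total 15), TMM, the two-sided robust quasi-likelihood test and Benjamini-Hochberg adjustment over all genes tested, called at 0.05. The difference used all 12 libraries. The standard error is the log2 fold change over the square root of F. An exact permutation test of 3 against 3 cannot go below 0.1. Scripts were tested on simulated data. In simulated gene counts 14 of 155 calls were false for the siRNA comparison, 11 of 141 for ML60218 and 7 of 123 for the difference. Of simulated log2 changes of size 0.3, 53.7%, 39.7% and 27.9% were called in the same order. The simulation changed a far smaller share of genes than passed in the data, so these rates need not hold there. Alternatives covered scaling, filters, DESeq2 1.42.0, limma 3.58.1 on log2(TPM + 1) and log2(TPM + 0.1), an isoform length offset, neighbouring transcripts, a replicate block and leaving out each library. Replicates differed by more than sampling noise (chi-square per gene 4.16 to 21.7).

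The members and lists were chosen with earlier results of these data known. Named were all members, MCL1 and BCL2L1 transcripts with a mean of at least 1 TPM in a group, up to 3 called genes with the largest rise and 3 with the largest fall per list and comparison, and the 5 genes most like MCL1 (mean log2 CPM 3 or above). The short forms MCL1-201 and BCL2L1-202, HRK in the difference, and BCL2L2-PABPN1 were added for their sequence or after their values were seen. The individual values of 2 genes of the apoptosome and caspase list are not reported here, though its counts and medians include them. UTR copies were counted in the most abundant coding transcript whose annotated length was within 5% of the deposited one.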

Additional observations from a re-analysis of the deposited data

Results flagged for a closer look

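For 7 members the effect of the siRNA and that of the inhibitor differed. For MCL1 the siPOLR3A effect exceeded the ML60218 effect by 1.47 on the log2 scale, since every siPOLR3A library was above every siControl library and every ML60218 library below every DMSO library, and this difference was not tested because MCL1 was chosen for it. For BAX the effects differed by 0.79, for BAK1 by 0.65, for BCL2L12 by 0.47 and for BID by 0.26, each with the siRNA effect the higher. For BCL2L2 the difference was −0.70 and for BCL2 −0.30, with the ML60218 effect the higher. These 6 passed the test of the difference in edgeR (adjusted p 1.583e-07 to 0.01034), as did 50.9% of all genes.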

How the results depend on the processing

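Over 17 alternatives the number of the 9 members called after the siRNA stayed between 5 and 7 (5 to 7 on leaving out 1 library), and over 23 the number with a difference between the effects stayed between 5 and 7 (6 to 7 on leaving out 1 library). With ML60218 it was 4 to 5 on leaving out 1 library, and 2 in place of 5 in limma on log2(TPM + 1), on log2(TPM + 0.1) and on log2(TPM + 1) with no filter. In the last of these the ML60218 comparison called 2258 genes in place of 6029. The MCL1 turnover list had 2 to 5 calls after the siRNA and 1 to 6 with ML60218, and the apoptosome and caspase list 5 to 10 and 2 to 9. Over the same alternatives, the calls among all genes ranged from 5895 to 9163 after the siRNA and from 2258 to 6501 with ML60218. No BCL2L1 transcript was called for usage except 1, BCL2L1-205, without siControl replicate 2 (range 0 to 1 on leaving out 1 library, and 0 to 0 with ML60218). The cause was not tested.

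The following values changed sign. BAD after the siRNA was −0.01 without siPOLR3A replicate 1. BAD with ML60218, which ranged from −0.05 to 0.03 on leaving out 1 library, was 0.06 with total counts, 0.03 with the upper quartile, 0.01 with the length offset, 0.15, 0.16 and 0.15 in the 3 TPM fits, 0.03 without DMSO replicate 3 and 0.002 without ML60218 replicate 3. BTRC with ML60218 was 0.12 in the 3 TPM fits. Of the differences, BCL2L1 was −0.02 with neighbouring transcripts and BAD −0.07 in the 3 TPM fits. BCL2L11, which ranged from −0.04 to 0.05 on leaving out 1 library, was −0.01 with total counts, −0.06 with the offset, −0.16, −0.17 and −0.16 in the TPM fits, −0.001 without siControl replicate 1 and −0.04 without ML60218 replicate 2.

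Libraries with the same replicate number did not deviate together (Pearson r −0.0741 to 0.0656). With a replicate block 6 members were called after the siRNA, 6 with ML60218 and 6 for the difference, and 0 BCL2L1 transcripts in either usage test, while the calls among other BCL2 family genes with ML60218 went from 6 to 3. The scaling alternatives moved the median of all genes by at most 0.071.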
